A study of Danio rerio with 3 samples.

Results

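The genes described here encode the mitochondrial ATP synthase and the carriers that move its substrates, and many other metabolites, across the inner mitochondrial membrane. The members are the probes whose gene symbol begins with atp5 or slc25. The rule gave 98 of 43603 probes. These probes belong to 68 of 15548 named genes, 18 of the atp5 group (26 probes) and 50 of the slc25 group (72 probes). Of 80 protein-coding RefSeq genes with these prefixes, the other genes were not analysed here.

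The samples were whole zebrafish embryos of strain Ab at 48 hours post fertilization. One set of wild type eggs had been injected with 7.5 ng of a morpholino (MO), an antisense oligomer. It was directed at the splice donor of exon 2 of slc2a10, which encodes GLUT10, a relative of glucose transporters. A different set received 5 ng of a control MO. Knockdown embryos were selected by their Class 1 phenotype, so dose, sorting and target differed together. Each of the 3 slc2a10 MO replicates was the RNA of 10 to 15 embryos, and control RNA was combined into 1 pool that was hybridised beside every replicate on a two-colour array.

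Each value is a log2 ratio between a knockdown replicate and the control pool, as deposited, with the sign of replicate 2 (the dye swap) turned. Base 2 was inferred from the size of the values, and every fold below depends on it. Before turning, replicate 2 correlated with replicates 1 and 3 at -0.65 and -0.69 over all features, while replicates 1 and 3 correlated at 0.48. The direction of the deposited ratios was not stated in the sources used here. The sample titles name the slc2a10 MO first for replicates 1 and 3 and the control pool first for replicate 2. Such an order does not state which sample was the numerator, and it was not used to set the signs. Signs are therefore relative to slc2a10 itself, whose probe gave 0.50, 0.42 and 0.47 on replicates 1, 2 and 3. A positive value means the same side as slc2a10. Ratios of Cy5 over Cy3 would make that side the control pool, and ratios of Cy3 over Cy5 would make it the knockdown embryos. Ratios already turned before deposit, under a dye bias larger than the sample difference, would correlate with these signs as well, which was not tested. Means are given ± SD over the 3 arrays (n = 3), and "called" means a limma Benjamini-Hochberg adjusted p under 0.05 over all named genes. Calls from all 3 arrays use replicate 2 with its sign turned. With its sign as deposited no gene was called (28 of 15548 had an unadjusted p under 0.05). A fit without replicate 2, which needs no turn, called 1556 of 15548 named genes and kept 13 of the 21 member calls. Replicates 1 and 3 share a dye order, so that fit cannot separate a dye effect. In whole embryos, fewer cells of a type and less RNA per cell cannot be told apart.

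ATP synthase is the rotary enzyme that makes ATP from ADP and phosphate while protons flow back into the mitochondrial matrix. Its catalytic head protrudes into the matrix, a ring of c subunits turns in the membrane, a peripheral stalk holds the head still, and small membrane subunits join the enzymes into dimers that bend the cristae. The slc25 proteins are a family of small membrane carriers that exchange adenine nucleotides, phosphate, carboxylates, amino acids, cofactors and iron between matrix and cytosol. Both are needed in quantity in muscle, heart and nervous tissue.

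The ATP synthase genes lay together on the slc2a10 side. Of 18 genes 11 were called there and 0 opposite. These 11 are 61.1% of the group, where 19.3% of all named genes were called in either direction (11.1% with slc2a10, 8.16% opposite). Without replicate 2, the array of the other dye order, 7 of the 18 were called (38.9%), beside 10.0% of all named genes. The median of the group was 0.26, against 0.0066 over all named genes. It was 0.18, 0.24 and 0.30 on replicates 1, 2 and 3. On all 3 arrays 15 of the 18 were above 0, as were 27.2% of all named genes. Read as log2, the differences were small in size, and none of the 18 reached 1.5-fold. At the level of single probes, 16 of 26 were called, each with slc2a10, while 11.7% of all probes were called.

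**Figure D1:**
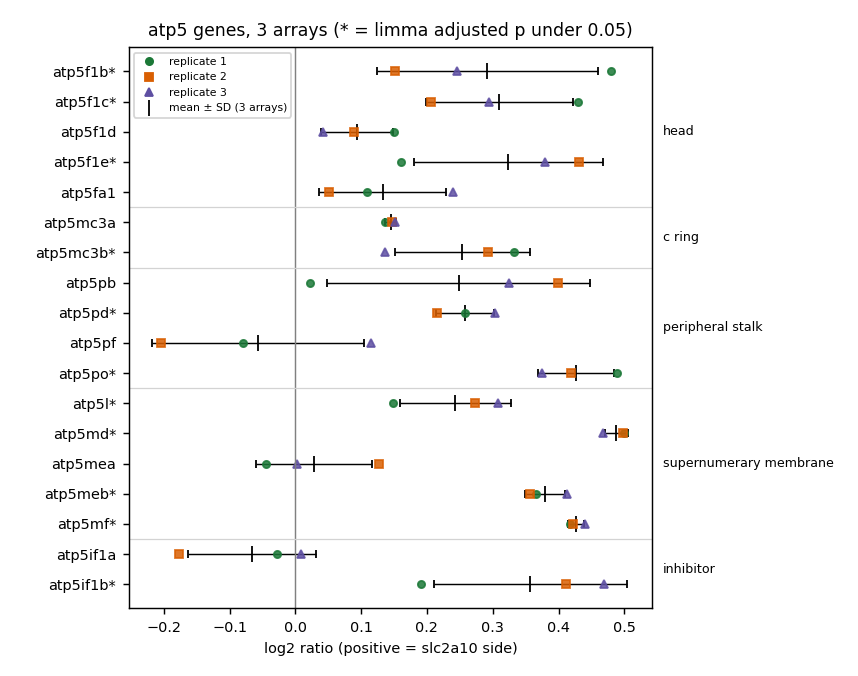
Log2 ratios of the 18 atp5 genes on each of the 3 arrays (coloured points), with mean ± SD (black), grouped by the part of the enzyme they encode; positive is the slc2a10 side and an asterisk marks a called gene. All genes but atp5pf and atp5if1a have a mean above 0, and atp5md, atp5mf and atp5meb have the closest agreement between arrays among the called genes.

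In the catalytic head, 3 of 5 genes were called (60%, beside 19.3% of all named genes). The gene atp5f1b, encoding the beta subunit that carries the catalytic sites, gave 0.48, 0.15 and 0.25 on replicates 1, 2 and 3 (0.29 ± 0.17, adjusted p = 0.022). For atp5f1c, the gamma subunit that forms the rotating shaft, the values were 0.43, 0.21 and 0.29 (0.31 ± 0.11, adjusted p = 0.0087). All 3 arrays were above 0 for both, with replicate 1 the highest. The epsilon subunit gene atp5f1e had the other order, 0.16, 0.43 and 0.38 (0.32 ± 0.14, adjusted p = 0.011), with replicate 1 the lowest. The alpha subunit gene atp5fa1 was above 0 on all arrays, at 0.11, 0.05 and 0.24, and was not called (0.13 ± 0.10, adjusted p = 0.16). The delta subunit gene atp5f1d stood at 0.15, 0.09 and 0.04 and was not called either (0.094 ± 0.05, adjusted p = 0.28). Without replicate 2 the call of atp5f1e was lost (0.27, adjusted p = 0.084).

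The c ring was represented by the paralogs atp5mc3a and atp5mc3b, which encode precursors of the proton-carrying c subunit. Averaged over probes, atp5mc3b was called (0.33, 0.29 and 0.14, mean 0.25 ± 0.10, adjusted p = 0.019), and atp5mc3a was not (0.14, 0.15 and 0.15, adjusted p = 0.085). These averages hid the widest disagreement between probes of any member. One atp5mc3a probe gave 0.34, 0.19 and 0.50 (adjusted p = 0.012 over all probes) and the other -0.07, 0.10 and -0.20. The same held for atp5mc3b, with 0.65, 0.39 and 0.42 on 1 probe (adjusted p = 0.0017) and 0.02, 0.19 and -0.15 on the other. In each gene, the probe with values near 0 is the one for which the platform annotation lists no transcript accession. The cause was not tested. The small SD of atp5mc3a (0.008) therefore came from averaging 2 probes that moved in opposite ways between arrays. Without replicate 2 the call of atp5mc3b was lost (0.23, adjusted p = 0.13).

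In the peripheral stalk, atp5po, encoding the oligomycin sensitivity-conferring protein that ties the stalk to the head, was among the clearest members. It gave 0.49, 0.42 and 0.37 (0.43 ± 0.06, 1.35-fold, adjusted p = 0.0013), and its 2 probes had means of 0.42 and 0.43. The gene atp5pd, for the stalk subunit d, stood at 0.26, 0.21 and 0.30 (0.26 ± 0.04, adjusted p = 0.010), and its call was lost without replicate 2 (0.28, adjusted p = 0.056). All 3 arrays lay above 0 for both genes. The subunit b gene atp5pb had 0.02 on replicate 1 and 0.40 and 0.32 on replicates 2 and 3. It was not called (0.25 ± 0.20, adjusted p = 0.057), but was called without replicate 1 (0.36, adjusted p = 0.0029), with a dye term (0.29, adjusted p = 0.034) and with array weights (0.34, adjusted p = 0.0016). The coupling factor 6 gene atp5pf was one of the 2 members of the atp5 group with a mean below 0, at -0.08, -0.20 and 0.11, and its arrays differed in sign (-0.057 ± 0.16).

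The small membrane subunits held the largest mean of the group, that of atp5md. Of their 5 genes 4 were called (80%, beside 19.3% of all named genes). The gene atp5md, encoding the subunit also known as DAPIT or USMG5, gave 0.50, 0.50 and 0.47 (0.49 ± 0.02, 1.40-fold, adjusted p = 0.00059). For atp5mf, encoding subunit f, the arrays gave 0.42, 0.42 and 0.44 (0.43 ± 0.01, adjusted p = 0.0010). For atp5meb, encoding subunit e, they gave 0.37, 0.36 and 0.41 (0.38 ± 0.03, adjusted p = 0.0019). In these genes the spread between arrays was small beside the mean. Subunit g, encoded by atp5l, was lower and more variable at 0.15, 0.27 and 0.31 (0.24 ± 0.08, adjusted p = 0.019). Its call was lost without replicate 2 (0.23, adjusted p = 0.14) or without replicate 3 (0.21, adjusted p = 0.076). The second subunit e gene, atp5mea, stood near 0 at -0.04, 0.13 and 0.003 (0.028 ± 0.09). Its 95% interval, -0.10 to 0.16, did not reach the interval of atp5meb, 0.26 to 0.50, though the difference between these genes was not tested.

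The inhibitor protein IF1 binds the head and stops the enzyme from hydrolysing ATP when the membrane potential fails. Its 2 genes were each read by 1 probe, and the difference between them was not tested. The gene atp5if1b gave 0.19, 0.41 and 0.47 (0.36 ± 0.15, 1.28-fold, adjusted p = 0.0071), all above 0. The gene atp5if1a gave -0.03, -0.18 and 0.008 (-0.066 ± 0.10, adjusted p = 0.51) and was below atp5if1b on every array, by 0.22, 0.59 and 0.46. In zebrafish, atp5if1a (the pinotage gene) is known for its part in haem synthesis of red cells.

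Genes that serve the synthase without the atp5 name were taken from lists of related functions. The list of 8 genes of proton channel and assembly included mt-atp6 and mt-atp8, which had no probe under those names. From this list 5 genes were measured. Of these 3 were called (60%, beside 19.3% of all named genes), each with slc2a10, and the list median was 0.20. The assembly factor gene tmem70 gave 0.30, 0.47 and 0.65 (0.47 ± 0.18, adjusted p = 0.0033), and tmem242 gave 0.60, 0.39 and 0.36 (0.45 ± 0.13, adjusted p = 0.0023). Both encode membrane proteins that help build the enzyme's membrane part in human cells. The gene atpaf1, encoding a chaperone of the beta subunit, stood at 0.24, 0.24 and 0.12 (0.20 ± 0.07, adjusted p = 0.036). Its call was lost without replicate 1 (0.18, adjusted p = 0.072), without replicate 2 (0.18, adjusted p = 0.27), with a dye term (0.21, adjusted p = 0.089) or with unnamed probes in the fit (adjusted p = 0.058). The alpha subunit chaperone gene atpaf2 was close to it at 0.23, 0.19 and 0.10 and was not called (adjusted p = 0.057). The gene dmac2l had values of 0.11, -0.10 and -0.07.

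The other respiratory complexes are given only for scale. Of 43 nduf genes of complex I, 30 were called on the slc2a10 side (69.8%), with a median of 0.32. Of 26 genes of complexes III and IV, 18 were called there (69.2%), with a median of 0.31. None of either set was called on the opposite side. Whether the 18 atp5 genes differed from these sets was not tested.

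**Figure D2:**
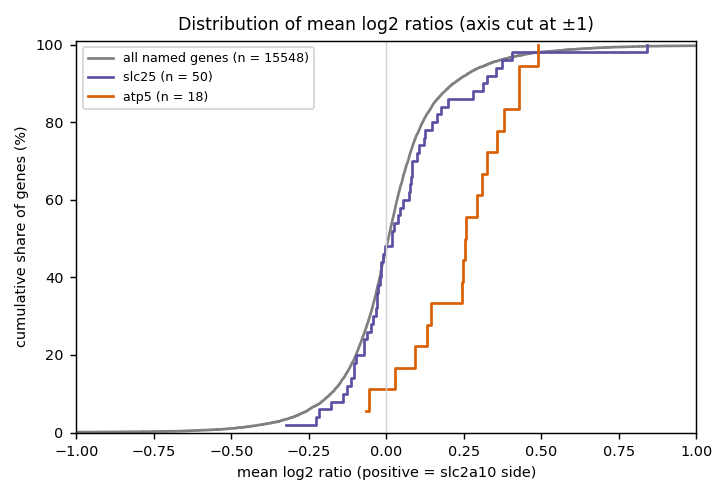
Cumulative share (%) of genes by mean log2 ratio for the 18 atp5 genes (orange), the 50 slc25 genes (purple) and all 15548 named genes (grey). The atp5 curve lies to the right, with a median of 0.26, while the slc25 curve, with a median of 0.018, runs close to that of all genes.

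The slc25 carriers did not move as a group. Of 50 genes 7 were called with slc2a10 (14%) and 3 opposite to it (6%), a total of 20% beside 19.3% of all named genes. Without replicate 2 the count was 6 (12%), all with slc2a10, beside 10.0% of all named genes. Their median was 0.018, and 0.032, -0.015 and 0.051 on replicates 1, 2 and 3. A share this close to that of all genes is no result about the family, and the values below describe single carriers. Read as log2, slc25a4 was the only carrier gene whose mean reached 1.5-fold, though single array values of other carriers did.

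**Figure D3:**
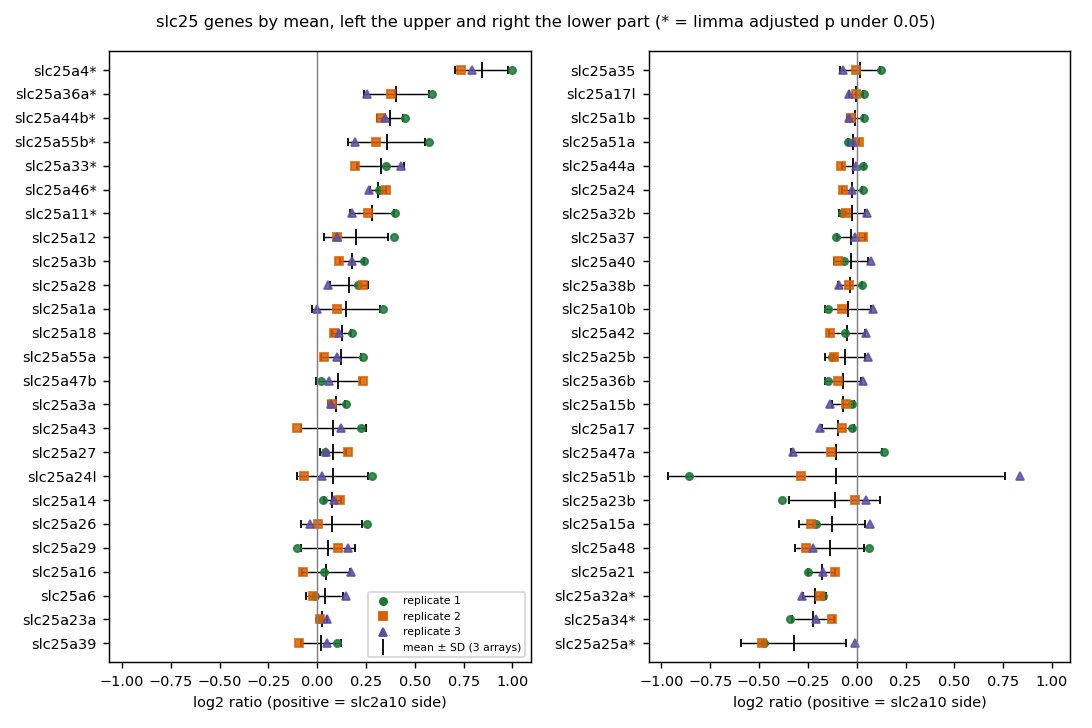
Log2 ratios of the 50 slc25 genes on each of the 3 arrays (coloured points) with mean ± SD (black), in order of their means; positive is the slc2a10 side and an asterisk marks a called gene. The arrays of slc25a4 lie between 0.73 and 1.00, apart from those of the other carriers on each array except for 1 value of slc25a51b, whose arrays spread from -0.86 to 0.83.

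Carriers of adenine nucleotides and phosphate supply the synthase directly. The gene slc25a4, encoding an ADP/ATP carrier (ANT1, the form of heart and muscle in mammals), had the largest difference of all members, with 1.00, 0.73 and 0.79 on replicates 1, 2 and 3. Its mean was 0.84 ± 0.14 (1.79-fold, adjusted p = 0.00015), and it ranked 66 of the 15548 named genes by mean. A second ADP/ATP carrier gene, slc25a6, stood at -0.01, -0.02 and 0.15 (0.038 ± 0.09, adjusted p = 0.72), with a 95% interval of -0.094 to 0.17 that lay below that of slc25a4, 0.69 to 0.99. Each of these genes was read by 1 probe on the same arrays, and the difference between them was not tested. The phosphate carrier genes slc25a3b (0.24, 0.11 and 0.18, from 3 probes between 0.17 and 0.19) and slc25a3a (0.15, 0.07 and 0.07) were above 0 on all arrays without being called. Their adjusted p-values were 0.053 and 0.24. The gene slc25a3b was called with quantile normalization across arrays (0.17, adjusted p = 0.047) and with array weights.

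The calcium-regulated carriers of ATP-magnesium and phosphate showed little on the slc2a10 side. The gene slc25a25a was called on the opposite side, at -0.47, -0.49 and -0.01 (-0.32 ± 0.27, adjusted p = 0.044), and replicate 3 alone showed no difference. Its call was lost without replicate 1 (-0.25, adjusted p = 0.11), without replicate 2 (-0.24, adjusted p = 0.21) and with unnamed probes in the fit (adjusted p = 0.058). Of the other carriers of this kind, slc25a23a, slc25a23b, slc25a24, slc25a24l and slc25a25b, none was called, and their means lay between -0.11 and 0.079.

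Among the carboxylate carriers 1 of 5 was called (20%, beside 19.3% of all named genes). The oxoglutarate and malate carrier gene slc25a11, part of the malate-aspartate shuttle that brings reducing equivalents into mitochondria, gave 0.40, 0.26 and 0.18 (0.28 ± 0.11, adjusted p = 0.014). Its 2 probes had the same mean of 0.28, and its call was lost without replicate 2 (0.29, adjusted p = 0.064). The other arm of that shuttle, the aspartate-glutamate carrier gene slc25a12, gave 0.39, 0.10 and 0.10 (0.20 ± 0.17) and was not called (adjusted p = 0.086). For the citrate carrier gene slc25a1a, replicate 1 stood apart from the other arrays, at 0.34 against 0.10 and -0.002 (adjusted p = 0.21). Its paralog slc25a1b lay at 0.04, -0.03 and -0.04. The oxodicarboxylate carrier gene slc25a21, of lysine and tryptophan breakdown, was below 0 on all arrays, at -0.25, -0.11 and -0.17 (-0.18 ± 0.07, adjusted p = 0.054). It was called with the arrays centred on the median of named genes (-0.19, adjusted p = 0.048) and with array weights. The dicarboxylate carrier gene slc25a10b had arrays of both signs (-0.044 ± 0.12).

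Of 8 genes for carriers of amino acids 1 was called (12.5%, beside 19.3% of all named genes). This was slc25a44b, related to the mammalian carrier of branched-chain amino acids, with 0.45, 0.33 and 0.35 (0.37 ± 0.07, 1.30-fold, adjusted p = 0.0025). Its paralog slc25a44a stood at 0.03, -0.08 and -0.006 (-0.018 ± 0.06) and was lower on every array, by 0.42, 0.41 and 0.35. The glutamate carrier gene slc25a18 was above 0 on all arrays (0.12 ± 0.05, adjusted p = 0.15). The ornithine carrier genes slc25a15a (-0.13 ± 0.17) and slc25a15b (-0.072 ± 0.06) had means below 0. The basic amino acid carrier gene slc25a29 (0.054 ± 0.14) and the glycine carrier gene slc25a38b (-0.035 ± 0.06) had arrays of both signs.

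Of 14 genes for carriers of nucleotides, cofactors and the like, 2 were called with slc2a10 and 1 opposite. That share (21.4%) is close to the 19.3% of all named genes, so it is no result about the group. The pyrimidine nucleotide carriers, which bring in building blocks of mitochondrial DNA and RNA in human cells, held both calls on the slc2a10 side. The gene slc25a36a gave 0.59, 0.38 and 0.26 (0.41 ± 0.17, 1.33-fold, adjusted p = 0.0054), with probes at 0.36 and 0.45, and slc25a33 gave 0.35, 0.19 and 0.43 (0.32 ± 0.12, adjusted p = 0.0080). The paralog slc25a36b was not called, at -0.15, -0.10 and 0.03. On the opposite side lay slc25a32a, related to the human carrier of folate and FAD, at -0.17, -0.19 and -0.28 (-0.22 ± 0.06, adjusted p = 0.024). Its call was lost without replicate 2 (-0.23, adjusted p = 0.13), without replicate 3 (-0.18, adjusted p = 0.11) and with dye order as a term (-0.21, adjusted p = 0.087). The paralog slc25a32b stood at -0.026 ± 0.07.

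The other 9 genes of this kind were not called. They were slc25a16 and slc25a42 (linked to coenzyme A), the peroxisomal carrier gene slc25a17 and slc25a17l, the S-adenosylmethionine carrier gene slc25a26, the glutathione carrier genes slc25a39 and slc25a40, and slc25a51a and slc25a51b, related to the human NAD carrier. Apart from slc25a51b, their means lay between -0.096 (slc25a17) and 0.074 (slc25a26). The single probe of slc25a51b had the widest spread of all members, with -0.86, -0.29 and 0.83 on replicates 1, 2 and 3 (-0.10 ± 0.86). Replicates 1 and 3, which share a dye order, lay farthest apart. Without replicate 3 it was called on the opposite side (-0.57, adjusted p = 0.0091).

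Neither mitoferrin gene was called. These carriers import iron for haem and iron-sulphur clusters, and slc25a37, the frascati gene of zebrafish, serves the red cell lineage. The 3 probes of slc25a37 had means of -0.12, -0.0003 and 0.038, and the gene stood at -0.11, 0.03 and -0.007 (-0.028 ± 0.07). The broadly expressed slc25a28 was above 0 on all arrays, at 0.21, 0.23 and 0.05 (0.16 ± 0.10, adjusted p = 0.087), with 1 of its 3 probes called. The relatives of uncoupling proteins, slc25a14 (0.078 ± 0.05) and slc25a27 (0.082 ± 0.07), were above 0 on all arrays and not called.

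Among the 9 members with other or unknown substrates, 3 were called (33.3%, beside 19.3% of all named genes), 2 with slc2a10 and 1 opposite. The gene slc25a46, whose protein sits in the outer membrane and acts in mitochondrial fission and fusion rather than transport, gave 0.32, 0.35 and 0.27 (0.31 ± 0.04, adjusted p = 0.0047). The gene slc25a55b gave 0.57, 0.30 and 0.19 (0.36 ± 0.20, adjusted p = 0.013). Its paralog slc25a55a had 0.23, 0.03 and 0.10 from 3 probes (adjusted p = 0.20). The orphan carrier gene slc25a34 lay on the opposite side at -0.34, -0.13 and -0.21 (-0.23 ± 0.11, adjusted p = 0.031). Leaving out any replicate ended that call, with means of -0.17, -0.27 and -0.23 and adjusted p of 0.083, 0.067 and 0.067 without replicates 1, 2 and 3. The call was also lost with dye order as a term. The genes slc25a47a and slc25a48 were not called, but without replicate 1 both were called on the opposite side (-0.23, adjusted p = 0.040, and -0.24, adjusted p = 0.019). The genes slc25a35, slc25a43 and slc25a47b had means of 0.017, 0.083 and 0.10.

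Zebrafish keep many of these genes as a and b paralogs, and 14 pairs had both members measured. In 8 pairs exactly 1 paralog was called (57.1%), in 6 neither was (42.9%), and in 0 were both. The atp5mc3 pair counts among the 8 by its probe averages, while each of its paralogs had 1 called probe and 1 near 0. Over all 1827 pairs of named genes whose symbols differ only in a final a or b, these shares were 30.1%, 63.2% and 6.68%. The sign of the difference was the same on all arrays in 10 of the 14 pairs (71.4%), and in 53.4% of all such pairs. With 14 pairs, and members of a pair sharing arrays, these counts are a description, and nothing is read from the absence of pairs with both called. Of the differences with 1 sign, the largest were between slc25a36a and slc25a36b (0.48 ± 0.26), atp5if1b and atp5if1a (-0.42 ± 0.19, as a minus b), slc25a44b and slc25a44a (-0.39 ± 0.04, as a minus b), and atp5meb and atp5mea (-0.35 ± 0.10, as a minus b). With 3 arrays an exact two-sided sign test of such a difference cannot go below 0.25. Each paralog was read by its own probes, so a difference in sensitivity between probes is part of these values and was not tested.

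**Figure D4:**
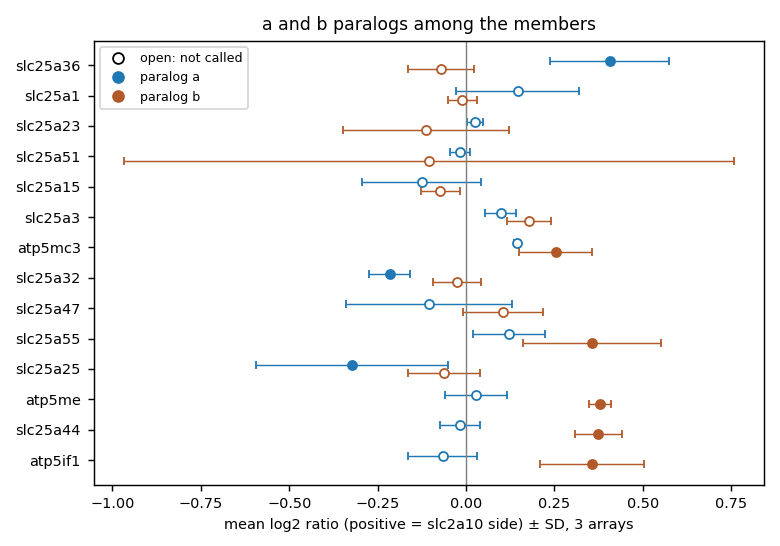
Mean log2 ratio ± SD over 3 arrays for the 14 pairs of a (blue) and b (brown) paralogs, ordered by the difference a minus b; filled points are called and open points are not. At most 1 point of each pair is filled, and slc25a36, slc25a44, atp5me and atp5if1 have the wide, one-signed gaps.

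Genes around the carriers were compared by fixed lists. Of 8 measured genes of the outer membrane channel and of phosphate energy transfer, 4 lay with slc2a10 among the calls and 1 opposite. These are 62.5%, beside 19.3% of all named genes, and the list median was 0.24. The muscle mitochondrial creatine kinase gene ckmt2a, whose enzyme passes phosphate from the ATP exported by the carrier to creatine, gave 1.21, 0.98 and 0.85 (1.01 ± 0.18, 2.01-fold, adjusted p = 0.00013). The ubiquitous form ckmt1 lay opposite at -0.15, -0.39 and -0.30 (-0.28 ± 0.12, adjusted p = 0.016), a call lost without replicate 2 (-0.22, adjusted p = 0.15). The outer membrane channel genes vdac2 (0.24 ± 0.04) and vdac3 (0.36 ± 0.06) and the cyclophilin gene ppifa (0.41 ± 0.19) were called on the slc2a10 side. The call of vdac2 was lost without replicate 2 (0.25, adjusted p = 0.092).

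Of 10 measured genes that import carriers into mitochondria, 2 were called (20%), both on the slc2a10 side. Of all named genes 19.3% were called (11.1% on that side), so the count is no result about the list. The 2 were the small chaperone genes timm10b (0.43 ± 0.06, adjusted p = 0.0013) and timm13 (0.27 ± 0.01, adjusted p = 0.0072). Without replicate 2 timm13 lost its call (0.28, adjusted p = 0.057). The list median was 0.14, and 8 of the 10 genes were above 0 on all arrays (80%, beside 27.2% of all named genes). Of 8 carriers and channels outside the slc25 name, among them ucp1, the sideroflexins and the calcium uniporter mcu, 0 were called. In this list 1 gene had an unadjusted limma p under 0.05, as did 4880 of all 15548 named genes. Of 8 regulators of mitochondrial biogenesis, 1 was called (12.5%), no more than the share of all named genes. It was the mitochondrial transcription factor gene tfb2m (0.48, 0.42 and 0.48, adjusted p = 0.00080). The coactivator gene ppargc1a stood at -0.08, -0.12 and -0.09 and was not called (adjusted p = 0.25), and neither was nrf1 (0.22 ± 0.16, adjusted p = 0.055), which was called without replicate 1 (0.31, adjusted p = 0.0074). Without replicate 3, gabpa, encoding a subunit of the nuclear respiratory factor 2 complex, was called on the opposite side (-0.27, adjusted p = 0.025).

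Markers of several tissues are given here as calls and list medians. Of all named genes, 19.3% were called in either direction, 10.0% without replicate 2 and 16.3% without replicate 3. For skeletal muscle, 8 of 10 measured markers were called with slc2a10 and 0 opposite, with medians of 0.46, 0.39 and 0.47 on replicates 1, 2 and 3. For neurons 5 of 7 (71.4%) were called with slc2a10 and 0 opposite, with medians of 0.44, 0.41 and 0.30. The neuron marker elavl3 was below 0 on all arrays, at -0.10, -0.12 and -0.20, without being called (adjusted p = 0.10). For heart 1 of 6 was called, nppa, a share (16.7%) close to that of all named genes, and the list medians were 0.15, 0.077 and 0.037. For erythroid cells 2 of 10 were called with slc2a10 and 1 opposite (30%, medians -0.053, -0.13 and 0.022). For liver they were 3 and 1 of 7 (57.1%, medians 0.088, 0.044 and 0.20). The liver medians hide large single values. The 3 were fabp10a (1.92 ± 0.13), tfa (1.09 ± 0.10) and cp (0.29 ± 0.13), and the 1 opposite was fgb (-0.27 ± 0.15). All 9 measured markers of proliferating cells were called opposite (medians -0.51, -0.64 and -0.52). Without replicate 2, the markers ckma (0.30, adjusted p = 0.052), snap25a (0.31, adjusted p = 0.054), fgb (-0.18, adjusted p = 0.25) and ccnb1 (-0.27, adjusted p = 0.067) lost their calls. That left 7 of 10 for skeletal muscle, 4 of 7 for neurons and 8 of 9 for proliferating cells. The call of ckma was also lost without replicate 3 (0.20, adjusted p = 0.073), where atp2a1 was called on the opposite side (-0.29, adjusted p = 0.035). Skeletal muscle then had 7 calls with slc2a10 and 1 opposite. Without replicate 3 the erythroid markers had 2 calls with slc2a10 and 4 opposite, the added ones being slc4a1a, epb41b and urod (-0.27, -0.29 and -0.48). Leaving out replicate 1 added hbae3 (0.34, adjusted p = 0.020) and nefma (0.38, adjusted p = 0.015) on the slc2a10 side. It also added fga on the opposite side (-0.28, adjusted p = 0.013). Erythroid markers then had 3 calls with slc2a10 and 1 opposite, neurons 6 and 0, and liver 3 and 2. In that fit 20.7% of all named genes were called. With array weights 33.5% were called. Neurons then had 6 calls with slc2a10 and 1 opposite, elavl3, and heart had 3 and 0. Erythroid markers had 3 and 5 and liver 3 and 2, while skeletal muscle and proliferating cells kept their counts. With dye order as a term, erythroid markers had 2 and 2, beside 14.3% of all named genes called. The part of tissue makeup and of the stage of development in the atp5 and slc25 values was not tested. The arrays give ratios only, so no marker's level could be set against 0.

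**Figure D5:**
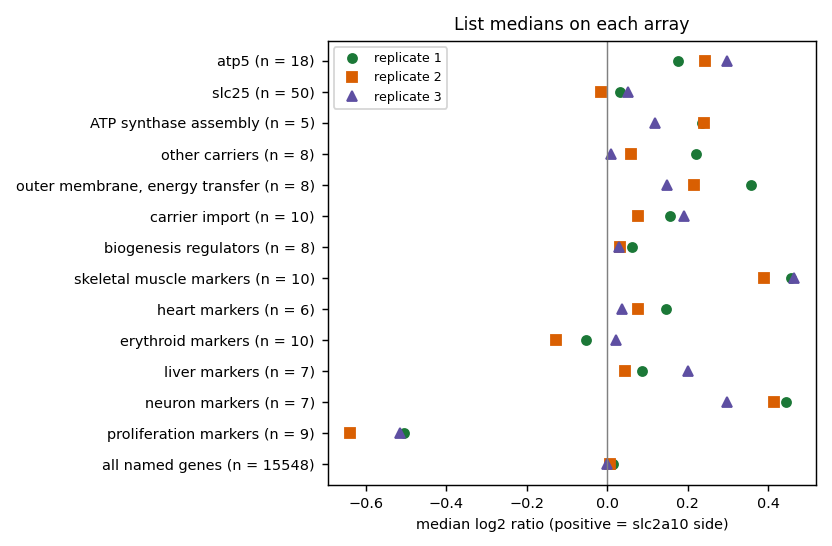
Median log2 ratio of each gene list on each of the 3 arrays; positive is the slc2a10 side and n is the number of measured genes. The atp5, skeletal muscle and neuron lists lie on the slc2a10 side on all arrays. All other lists except slc25, the erythroid markers and the proliferation markers have medians above 0 on all arrays, some of them close to 0. The other carriers stand at 0.0095 on replicate 3, and all named genes at 0.015, 0.0076 and 0.00072 on replicates 1, 2 and 3. The slc25 list lies near 0, the erythroid medians have both signs, and the proliferation markers lie on the opposite side on all arrays.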

How the data were processed

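The authors deposited 1 log2 ratio per probe and array for 3 two-colour arrays of slc2a10 MO replicates against a control MO pool. Base 2 was inferred from the values, whose largest size was 4.85, and a natural log is possible. Per the submitters' processing notes, Partek was used, with no version or role. Not given in the sources used here were the background correction, normalization, scanner and ratio direction. Probe signals were not analysed here, so detection and saturation are unknown. The deposited columns had medians of -0.0016, -0.0076 and -0.0045, and no value was missing.

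Here 45 control spots were left out of 43648 features, the sign of replicate 2 was turned by a rule on its correlation with the other arrays (under -0.3), and probes of a gene were averaged. Of the 98 member probes, 94 were matched to RefSeq genes of GRCz12tu through Entrez IDs and 4 through accessions, with no change of symbol. The mean of the 3 arrays was tested against 0 with limma 3.58.1 in R 4.3.3 (lmFit, eBayes), adjusted by Benjamini-Hochberg over 15548 named genes at 0.05. The fit had 2 residual degrees of freedom and a prior of 6.05. The script was tested on simulated data. The control pool is 1 sample, so its own spread is left out. The labels call the 3 knockdown replicates biological, and their number limits the precision. Members and lists were chosen with earlier results of these data known, among them that respiratory subunits as a class lay on the slc2a10 side, so that pattern is not independent support. Genes outside the members are named from fixed lists. Alternatives left out each replicate, changed the moderation, dye term, centring, normalization, array weights, probe summary, sign of replicate 2 and set of tested features.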

Additional observations from a re-analysis of the deposited data

How the results depend on the processing

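The ATP synthase genes gave 11 calls and the carriers 10, and the 98 single probes gave 27. With the sign of replicate 2 as deposited, these counts were 0, 0 and 0 (28 of all named genes had an unadjusted p under 0.05). Of the 21 called members 1 changed sign, slc25a25a, to a mean of 0.0013. The called liver marker fgb also changed sign, to 0.027. Among the 47 members without a call, 20 changed sign. Without pooling of the spread across genes, 0 ATP synthase genes and 0 carriers were called (3262 named genes had an unadjusted p under 0.05, and 2 were called). Leaving out 1 replicate gave 7 to 12 ATP synthase calls, 6 to 10 carrier calls and 18 to 31 probe calls, each lowest without replicate 2, the dye swap. Of the 21 called members, 19, 13 and 18 kept their call without replicates 1, 2 and 3. Array weights estimated by limma (0.51, 2.8 and 0.70 for replicates 1, 2 and 3) gave 16 carrier calls (32%), 10 with slc2a10 and 6 opposite, and 13 ATP synthase calls, while calls over all named genes rose to 33.5%. The 8 members that gained a call with these weights were atp5mc3a, atp5pb, slc25a15a, slc25a21, slc25a28, slc25a3b, slc25a47b and slc25a48. All 21 members called in the main fit kept their call with robust eBayes, recentred arrays, quantile normalization, array weights and the median probe. With a dye term 19 kept it, and with unnamed probes in the fit 20 did. No paired analysis was possible because all arrays form 1 group against 1 control pool. Depth does not apply to arrays, and signal over background is unknown here.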

Other observations

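Replicates 1, 2 and 3 were the highest array for 42.7%, 25.1% and 32.2% of all named genes. The 50 carriers had the same order, with 52%, 18% and 30%. Among the 18 ATP synthase genes replicate 3 was the highest in 9, replicate 1 in 6 and replicate 2 in 3. Over the 68 member genes, after turning, replicates 1 and 2 correlated at 0.77, replicates 2 and 3 at 0.64 and replicates 1 and 3 at 0.37, although the last pair shares a dye order. These correlations are across genes on arrays that share the control pool.

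Of the 24 members with more than 1 probe, 15 had probe means within 0.1 of each other, and only the c ring genes atp5mc3a and atp5mc3b had probe means over 0.2 apart. The probes of 18 of the 24 lay on 1 side of 0.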
